A study of Mus musculus with 4 samples.

Results

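Solute carriers are the largest group of membrane transport proteins, and their gene symbols begin with Slc followed by a family number. The genes described here are the Slc genes that reached at least 5 FPKM (fragments per kilobase of transcript, scaled for library size) in at least 1 of 4 RNA-seq libraries of mouse bone marrow-derived macrophages, cells matured in a dish from marrow precursors. The rule leaves out 11 Slc genes (Slc40a1, Slc11a1, Slc11a2, Slc48a1, Slc7a11, Slc7a2, Slc2a1, Slc16a1, Slc16a3, Slc39a14 and Slc30a1). It gave 128 members among 357 Slc genes and 23284 gene rows in all. The 4 libraries were 1 each of Spic-/- cells with LPS, Spic-/- cells without LPS, control (Spic+/+) cells with LPS and control cells without LPS. All 4 cultures, controls included, had first received hemin, the oxidised form of heme, for 18 h. The dose of hemin was 40 µM per the treatment protocol, while the sample descriptions print the same number in mM. LPS (lipopolysaccharide, the bacterial ligand of Toll-like receptor 4) was given at 100 ng/ml for 4 h. The product of Spic, Spi-C, is a DNA-binding protein of the Ets family, and heme is known to raise its expression in macrophages. The sample titles call the knockout conditional, and the labels used here give no allele, Cre driver, animal age or number of animals. With 1 library in each group no difference has a replicate check, and the values below are therefore descriptions without tests.

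A solute carrier moves ions or small molecules across a membrane by cycling between conformations, either down a gradient or coupled to the movement of sodium, protons or a second solute. Members at the cell surface take up amino acids, sugars, nucleosides, vitamins and metal ions. Others sit in lysosomes and export the products of digestion, in the inner mitochondrial membrane, where they exchange metabolites with the cytosol, or in the Golgi and endoplasmic reticulum, where they bring in sugar nucleotides for glycosylation. In macrophages, which digest engulfed cells and proteins, lysosomal export contributes to nutrient supply, and activation by LPS is known for a shift of sugar and amino acid use.

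Spic itself stood at 80.8 FPKM with LPS and 14.98 FPKM without LPS in Spic-/- cells, against 406 and 53.1 FPKM in control cells, so it was lower in both knockout libraries but not at 0. All 8 macrophage markers examined were above 1 FPKM in every library, and markers of B, T, NK, erythroid and mast cells were under 1 FPKM in each. Stromal markers were present, but the endothelial marker Pecam1 and the stromal marker Lum were under 1 FPKM in every library. The list of 12 stromal and endothelial genes summed to 434 FPKM with LPS and 382 FPKM without LPS in Spic-/- cells, against 742 and 767 FPKM in control cells. Among neutrophil markers S100a8 stood at 114 FPKM with LPS and 18.5 FPKM without LPS in Spic-/- cells, against 214 and 20.2 FPKM in control cells, and Mpo was listed at 0 in all 4. In such bulk samples, fewer cells of a type and less RNA per cell cannot be told apart. The spacing of low values gave a relative depth of 51.6% in Spic-/- cells with LPS, 82.8% in Spic-/- cells without LPS, 67.8% in control cells with LPS and 100% in control cells without LPS. One FPKM stood for about 8.07, 12.95, 10.6 and 15.6 fragments per kilobase in the same order. The median member rested on about 288 estimated fragments in the shallowest library. Intervals given for ratios are exact (Clopper-Pearson) 95% intervals from these estimated fragments, and they cover counting error only, not the spread between cultures.

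The members' levels spanned a wide range. Averaged over the 4 libraries, 53 members lay under 10 FPKM, 67 between 10 and 100 FPKM and 8 above 100 FPKM, with a median of 11.9 FPKM. The highest was Slc3a2, the CD98 heavy chain that carries the light chains of several amino acid exchangers to the cell surface, at 871 FPKM with LPS and 578 FPKM without LPS in Spic-/- cells, against 921 and 706 FPKM in control cells. It alone made up 17.4%, 16.2%, 20.4% and 20.3% of the members' summed FPKM in Spic-/- cells with LPS, Spic-/- cells without LPS, control cells with LPS and control cells without LPS. The next levels were those of Slc15a3 (mean 357 FPKM), a lysosomal transporter of peptides and histidine, and of a pair of mitochondrial carriers, Slc25a3 (189 FPKM), which imports phosphate, and Slc25a5 (181 FPKM), an adenine nucleotide translocase. Slc31a2, a low-affinity copper transporter (148 FPKM), Slc6a6, the taurine transporter (122 FPKM), and Slc2a6, a member of the glucose transporter family found in lysosomes (114 FPKM), followed. Slc39a1, a zinc importer (105 FPKM), Slc37a2, a sugar phosphate exchanger of the endoplasmic reticulum (86.2 FPKM), and Slc25a4, a second adenine nucleotide translocase (84.3 FPKM), completed the 10 highest.

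Not every member was above the minimum everywhere. In all 4 libraries 95 members reached 5 FPKM, while 12 did so in 3, 14 in 2 and 7 in 1. A total of 18 members reached it only without LPS and 3 only with LPS, and these had to differ between the LPS states to some extent. Just inside the minimum were Slc16a13 (highest value 5.16 FPKM), Slc25a43 (5.39 FPKM) and Slc35e3 (5.64 FPKM), and just outside it were Slc7a5 (4.95 FPKM), Slc22a5 (4.85 FPKM) and Slc41a1 (4.83 FPKM). Of the Slc genes, 218 stayed under it, 84 of them at 0 in all 4 libraries.

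LPS ratios were computed as log2 of (FPKM + 1) with LPS over (FPKM + 1) without LPS within each genotype, and a member was counted at 2-fold or more. In Spic-/- cells 13 of 128 members were at least 2-fold higher with LPS and 17 lower, and in control cells 11 were higher and 16 lower. Among all 8272 genes that met the same minimum, 13.5% were higher and 7.79% lower in Spic-/- cells, and 12.2% were higher and 6.65% lower in control cells. The members' shares were 10.2% higher and 13.3% lower in Spic-/- cells, and 8.59% higher and 12.5% lower in control cells. At 1.5-fold the members gave 23 higher and 33 lower in Spic-/- cells, which is 18.0% and 25.8% of members. Of all genes 24.99% were higher and 17.1% lower, together 42.1%. In control cells they gave 23 higher and 30 lower at 1.5-fold, which is 18.0% and 23.4% of members. Of all genes 22.9% were higher and 15.3% lower there, together 38.2%. Since the minimum was applied to these same values, the shares are a description and carry no test. The members' median log2 ratio was -0.15 in Spic-/- cells and -0.11 in control cells, beside 0.12 and 0.10 for all genes. With a minimum of 20 FPKM, which left 50 members, the members' medians were 0.23 in Spic-/- cells and 0.12 in control cells, beside 0.28 and 0.26 for all genes at that minimum.

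The split of calls depended on the scaling. Upper-quartile scaling moved the median of all genes to -0.15 in Spic-/- cells and -0.13 in control cells, and the members' calls to 10 higher and 25 lower in Spic-/- cells and 10 higher and 20 lower in control cells. That is 7.81% higher and 19.5% lower in Spic-/- cells, beside 10.01% and 12.5% of all genes. In control cells it is 7.81% higher and 15.6% lower, beside 9.88% and 10.3% of all genes. Higher members then made up 28.6% of calls in Spic-/- cells and 33.3% in control cells, against 43.3% and 40.7% as deposited. The same scaling took the share of higher calls among all genes to 44.5% in Spic-/- cells and 49.0% in control cells, against 63.4% and 64.8% as deposited. With a pseudocount of 5 FPKM in place of 1, the lower members numbered 6 in each genotype, which is 4.69% beside 3.18% of all genes in Spic-/- cells and 2.77% in control cells. The higher members then numbered 11 in Spic-/- cells and 10 in control cells, so they outnumbered the lower ones. That is 8.59% beside 10.8% of all genes in Spic-/- cells, and 7.81% beside 9.51% in control cells. With that pseudocount Slc17a5, Slc25a30, Slc26a11, Slc29a3, Slc2a8, Slc36a1, Slc45a4 and Slc46a1 were under 2-fold in both genotypes. Slc12a4, Slc16a7, Slc27a1, Slc30a6 and Slc33a1 were then under 2-fold in Spic-/- cells, and Slc25a38, Slc25a45 and Slc7a7 in control cells.

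The 2 genotypes gave nearly the same members. All 11 members higher in control cells were also among the 13 higher in Spic-/- cells (84.6% of those). The additional 2 in Spic-/- cells were Slc12a4, a potassium-chloride cotransporter, and Slc30a6, a zinc transporter of the secretory pathway, whose log2 ratios in control cells were 0.99 and 0.97. Both were under 2-fold in Spic-/- cells after upper-quartile scaling, and both passed 2-fold in control cells with a pseudocount of 0.1 FPKM. Of the lower members, 15 were shared, which is 88.2% of the 17 in Spic-/- cells and 93.8% of the 16 in control cells. Across the 128 members, which share the libraries of each axis, the LPS ratios of the genotypes, which share no library, had a Pearson correlation of 0.98 and a Spearman correlation of 0.97. The sign was the same for 122 members. Members are not replicates, so these are descriptions. The overlap, signs and correlations were not computed for all genes, so they cannot be called particular to the members.

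**Figure D1:**
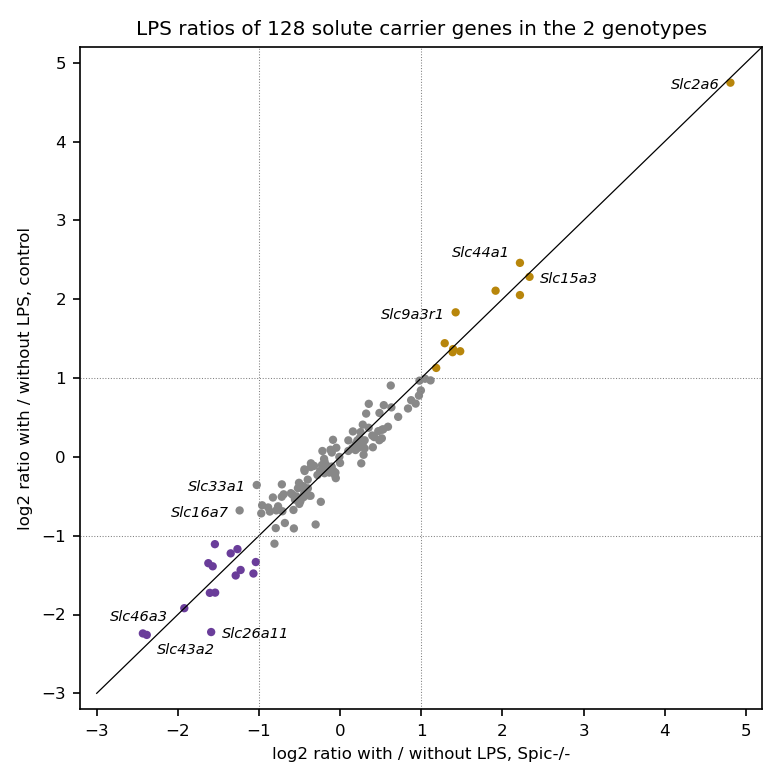
Each point is 1 of 128 solute carrier genes, with its log2 ratio of (FPKM + 1) with over without LPS in Spic-/- cells on the horizontal axis and in control cells on the vertical axis. The diagonal marks equal ratios and the dotted lines mark 2-fold. The 11 gold points were at least 2-fold higher and the 15 purple points at least 2-fold lower in both genotypes, and Slc2a6 stands alone at the upper right.

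The highest LPS ratio belonged to Slc2a6 (chromosome 2, 27021363 to 27028000, GRCm38.p6), which encodes GLUT6. It stood at 243 FPKM with LPS and 7.69 FPKM without LPS in Spic-/- cells, against 198 and 6.403 FPKM in control cells. The ratio was 31.6 (interval 27.2 to 36.9) in Spic-/- cells and 30.9 (interval 26.6 to 36.1) in control cells, so both libraries with LPS lay far above both without. Slc44a1, a choline transporter, stood at 88.5 FPKM with LPS and 18.3 FPKM without LPS in Spic-/- cells, against 74.7 and 12.7 FPKM in control cells. Slc15a3 had 687 and 135 FPKM with and without LPS in Spic-/- cells and 504 and 103 FPKM in control cells, and its log2 ratios were 2.33 in Spic-/- cells and 2.28 in control cells. In each of these genes the lowest library with LPS was above the highest without it. They were picked for high LPS ratios, so this order is no separate result.

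Slc28a2, a sodium-coupled transporter of purine nucleosides, had 62.03 and 12.6 FPKM with and without LPS in Spic-/- cells and 48.4 and 10.9 FPKM in control cells. Slc31a2 had 255 and 66.9 FPKM with and without LPS in Spic-/- cells and 219 and 50.03 FPKM in control cells, and Slc31a1, the high-affinity copper importer, 58.8 and 20.4 FPKM with and without LPS in Spic-/- cells and 49.8 and 19.1 FPKM in control cells. Both copper transporter genes were thus higher with LPS in either genotype. The next was Slc16a10, a transporter of aromatic amino acids, with log2 ratios of 1.39 in Spic-/- cells and 1.37 in control cells. Slc4a7, a sodium bicarbonate cotransporter, had 1.29 and 1.44. Slc25a37, mitoferrin 1, which brings iron into mitochondria for heme and iron-sulfur cluster synthesis, stood at 41.6 FPKM with LPS and 15.3 FPKM without LPS in Spic-/- cells, against 31.6 and 11.99 FPKM in control cells. Slc7a7, a light chain partner of Slc3a2 that exports basic amino acids, had log2 ratios of 1.18 and 1.13, and after upper-quartile scaling it was under 2-fold in both genotypes. Slc9a3r1, a member by its symbol alone, encodes a scaffold protein that anchors membrane proteins and is not a transporter. It stood at 93.9 FPKM with LPS and 34.3 FPKM without LPS in Spic-/- cells, against 118 and 32.3 FPKM in control cells.

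The lowest LPS ratios belonged to genes with a high level without LPS as well as to scarce ones. Slc43a2 (chromosome 11, 75529915 to 75577575), which encodes the neutral amino acid transporter LAT4, stood at 15.2 FPKM with LPS and 83.7 FPKM without LPS in Spic-/- cells, against 16.1 and 80.9 FPKM in control cells. The level with LPS was 0.182 of that without LPS in Spic-/- cells (interval 0.169 to 0.196) and 0.199 in control cells (interval 0.187 to 0.212). Slc37a2 (chromosome 9, 37229149 to 37255738) had 36.6 and 141 FPKM with and without LPS in Spic-/- cells and 34.3 and 133 FPKM in control cells, a ratio of 0.259 in each genotype. These genes were picked for low LPS ratios, so their levels without LPS lay well above those with LPS. The genotypes hardly differed.

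Slc46a3, a lysosomal member, stood at 0.616 FPKM with LPS and 7.72 FPKM without LPS in Spic-/- cells, against 1.07 and 8.76 FPKM in control cells. Its value with LPS rested on about 10.5 estimated fragments in Spic-/- cells and 23.9 in control cells. Slc26a11, a sulfate and chloride transporter, had 0.748 and 4.26 FPKM with and without LPS in Spic-/- cells and 0.456 and 5.79 FPKM in control cells, with about 15.01 and 12.01 fragments in the libraries with LPS. Slc17a5, sialin, which exports sialic acid from lysosomes, stood at 2.15 FPKM with LPS and 8.595 FPKM without LPS in Spic-/- cells, against 2.02 and 8.98 FPKM in control cells. Slc24a6, now called Slc8b1, the sodium-calcium exchanger of mitochondria, had 10.3 and 31.97 FPKM with and without LPS in Spic-/- cells and 9.13 and 32.4 FPKM in control cells. The remaining members among the 12 lowest were Slc35c2, Slc45a4, Slc29a3, Slc36a1, Slc25a45 and Slc46a1, with log2 ratios from -1.62 to -1.23 in Spic-/- cells and from -1.50 to -1.11 in control cells. All of the 12 lowest were at least 2-fold lower with LPS in both genotypes.

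**Figure D2:**
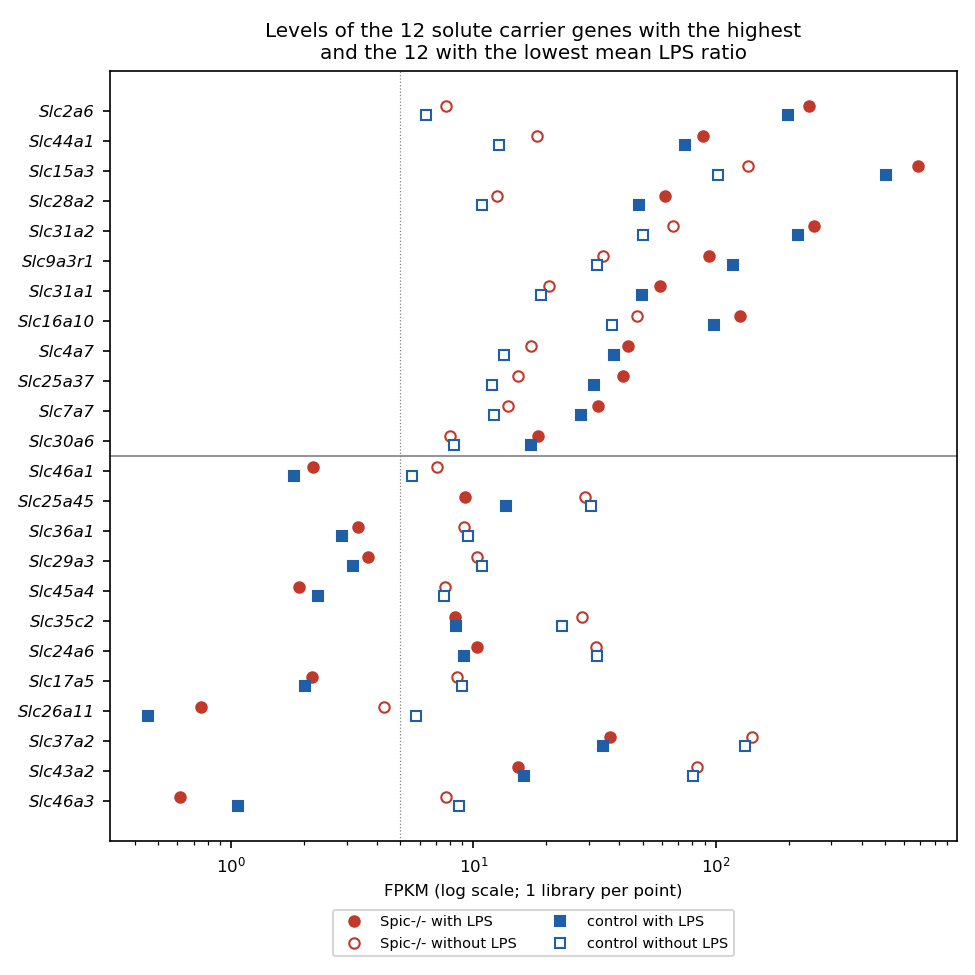
Levels in FPKM on a log axis of the 12 members with the highest mean LPS ratio (above the grey line) and the 12 with the lowest (below it), 1 point per library, with red circles for Spic-/- cells, blue squares for control cells, filled marks with LPS and open marks without. The dotted line is the 5 FPKM minimum. Filled and open marks do not overlap in any of the 24 genes. The genes were picked by their LPS ratio, so this gap follows from the choice. Slc26a11 and Slc46a3 with LPS are the points furthest left.

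Promoters were looked at for the 4 members with the highest and the 4 with the lowest mean LPS ratio, and 6 of these 8 had an entry in the RefSeq table used (GRCm38.p6, 250 bases before to 50 after the annotated start). A total of 100 of the 128 members were matched in that table. The motifs searched, on both strands, were the NF-kB consensus, the interferon-stimulated response element core, and GAGGAA, the core bound by PU.1 and related Ets factors. Of 32851 promoters in the table, 4.51% held the first, 3.44% the second and 28.3% the third. Those of the highest member (Slc2a6), of a second high member with motif matches (Slc28a2) and of the 2 lower members with matches (Slc43a2, first of 2 starts, and Slc37a2) are shown, with matched letters in capitals, strand of the gene, 5′ to 3′.
Slc2a6 promoter, chr2:27027949-27028248, minus strand: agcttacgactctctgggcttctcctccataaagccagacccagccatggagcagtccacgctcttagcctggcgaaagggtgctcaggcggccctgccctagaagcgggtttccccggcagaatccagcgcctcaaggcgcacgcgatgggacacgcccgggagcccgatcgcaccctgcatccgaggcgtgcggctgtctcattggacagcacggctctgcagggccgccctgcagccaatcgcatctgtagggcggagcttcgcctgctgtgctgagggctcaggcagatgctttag
Slc28a2 promoter, chr2:122426185-122426484, plus strand: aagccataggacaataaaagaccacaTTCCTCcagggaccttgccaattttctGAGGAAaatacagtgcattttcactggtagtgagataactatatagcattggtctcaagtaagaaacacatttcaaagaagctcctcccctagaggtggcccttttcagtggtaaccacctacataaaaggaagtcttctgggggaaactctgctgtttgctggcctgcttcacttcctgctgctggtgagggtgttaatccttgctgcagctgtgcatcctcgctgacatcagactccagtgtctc
Slc43a2 promoter, chr11:75531444-75531743, plus strand: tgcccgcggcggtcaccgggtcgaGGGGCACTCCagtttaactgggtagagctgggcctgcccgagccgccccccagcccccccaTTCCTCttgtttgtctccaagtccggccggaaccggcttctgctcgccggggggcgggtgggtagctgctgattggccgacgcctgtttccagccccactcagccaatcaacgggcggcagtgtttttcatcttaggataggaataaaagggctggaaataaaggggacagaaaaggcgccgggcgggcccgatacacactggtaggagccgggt
Slc37a2 promoter, chr9:37255689-37255988, minus strand: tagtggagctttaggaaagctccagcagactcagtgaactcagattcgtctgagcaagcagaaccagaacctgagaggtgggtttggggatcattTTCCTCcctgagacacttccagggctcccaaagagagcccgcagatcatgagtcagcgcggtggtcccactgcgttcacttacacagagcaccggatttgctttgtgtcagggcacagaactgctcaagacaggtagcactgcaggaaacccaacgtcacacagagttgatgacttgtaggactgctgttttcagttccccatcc
The Slc2a6 window held none of the 3 motifs. In Slc28a2 the capitals mark GAGGAA once on each strand. In Slc43a2 they mark 1 match to the NF-kB consensus and 1 GAGGAA on the opposite strand, and in Slc37a2 1 GAGGAA on the opposite strand. The windows of Slc44a1 and Slc46a3 and that of the second Slc43a2 start, not shown, held none of the motifs. Both Slc43a2 windows lie inside the gene coordinates given above. A match is a description of letters, and no match says only that these letters are not in this window.

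The families are given without the 11 genes that the rule leaves out. Beside the counts by family stand the all-gene shares given above, 13.5% higher and 7.79% lower in Spic-/- cells. In control cells they were 12.2% and 6.65%. The 18 members that reached 5 FPKM only without LPS, and the 3 only with LPS, are counted in their families. They became members through the state in which they were high. By substrate, amino acid transporters (17 members) had 2 higher and 2 lower in each genotype, with medians of -0.06 in Spic-/- cells and -0.23 in control cells. The higher were Slc16a10 and Slc7a7, and the lower were Slc43a2 and Slc36a1, the proton-coupled amino acid transporter of lysosomes, at 3.35 FPKM with LPS and 9.18 FPKM without LPS in Spic-/- cells, against 2.87 and 9.46 FPKM in control cells. Slc7a8, a light chain of Slc3a2 that exchanges neutral amino acids, had 85.4 and 71.2 FPKM with and without LPS in Spic-/- cells and 62.2 and 65.9 FPKM in control cells. Slc6a6 had log2 ratios of -0.45 and -0.51, and Slc1a5, a glutamine transporter named after its values were seen, -0.61 and -0.46. Thus members of 1 substrate class lay on both sides, and most (13 of 17) were between the 2-fold limits. Of the 2 peptide and histidine transporters, Slc15a3 was described above, while Slc15a4, a relative in endolysosomes that is needed for signalling by the nucleic acid sensing Toll-like receptors, stood at 31.8 FPKM with LPS and 35.9 FPKM without LPS in Spic-/- cells, against 28.05 and 30.2 FPKM in control cells. Slc15a3 overlaps exons of Tmem132a on the opposite strand, as Slc7a7 does those of Oxa1l, Slc16a6 those of Arsg and Amz2, Slc35a4 those of Apbb3 and Slc39a13 those of Psmc3. In all, 28 members overlapped an annotated exon (GENCODE) on the opposite strand, Slc43a2, Slc37a2, Slc44a1, Slc25a37 and Slc33a1 among them, and 5 on the same strand. The libraries were stranded per the labels' protocols, but no source used here says whether fragments were counted by strand.

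Sugar and sugar phosphate transporters (8 members) had 1 higher, Slc2a6, and 3 lower in each genotype, namely Slc37a2, Slc45a4 and Slc2a8. Their median was -0.80 in Spic-/- cells and -0.77 in control cells. Slc2a8, GLUT8, an intracellular glucose transporter, had 3.24 and 9.19 FPKM with and without LPS in Spic-/- cells and 3.37 and 8.84 FPKM in control cells, and Slc45a4 had 1.91 and 7.63 FPKM with and without LPS in Spic-/- cells and 2.28 and 7.59 FPKM in control cells. Slc2a9, a urate transporter, had log2 ratios of -0.83 and -0.52, and Slc50a1, a sugar transporter named after its values were seen, -0.76 and -0.63. Without Slc2a6 every member of the family, from which the rule leaves out Slc2a1, was below 0 in both genotypes. Of these, Slc2a8, Slc2a9, Slc37a4 and Slc45a4 reached 5 FPKM only without LPS. They became members through the state in which they were high, so their sign is no separate result. The 3 carboxylate members, a family from which the rule leaves out Slc16a1 and Slc16a3, were also below 0. Slc16a6 was at -0.18 and -0.12, Slc16a13 at -0.79 and -0.68, and Slc16a7, a monocarboxylate transporter, at -1.24 in Spic-/- cells and -0.68 in control cells. Slc16a13 and Slc16a7 likewise reached 5 FPKM only without LPS.

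Among 4 nucleoside and base transporters, Slc28a2 was higher and Slc29a3, the nucleoside exporter of lysosomes, was lower in each genotype, at 3.67 FPKM with LPS and 10.4 FPKM without LPS in Spic-/- cells, against 3.19 and 10.9 FPKM in control cells. Of 7 members for vitamins and acetyl-CoA, none was at least 2-fold higher, while 3 were lower in Spic-/- cells (Slc46a3, Slc46a1 and Slc33a1) and 2 in control cells (Slc46a3 and Slc46a1). In this family Slc46a3, Slc46a1, Slc19a1 and Slc19a2 reached 5 FPKM only without LPS. These became members through the state in which they were high. Slc23a2, a transporter of vitamin C, was the exception in sign, with log2 ratios of 0.97 and 0.78. Slc46a1, the proton-coupled folate transporter, stood at 2.18 FPKM with LPS and 7.09 FPKM without LPS in Spic-/- cells, against 1.82 and 5.58 FPKM in control cells, and Slc19a1, the reduced folate carrier, had 3.63 and 4.71 FPKM with and without LPS in Spic-/- cells and 2.67 and 5.66 FPKM in control cells. The lipid-related group (6 members) paired the choline transporter Slc44a1 with Slc27a1, a fatty acid transport protein that was lower with LPS, at 25.96 FPKM with LPS and 54.4 FPKM without LPS in Spic-/- cells, against 18.01 and 46.9 FPKM in control cells. Slc44a2, the relative of Slc44a1 named after its values were seen, had log2 ratios of -0.50 and -0.60, so the 2 Slc44 members had opposite signs.

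Metal ion transporters (18 members) had no member at least 2-fold lower in either genotype. The rule leaves out Slc40a1, Slc11a1, Slc11a2, Slc39a14 and Slc30a1, so only part of this class is described. Of all genes 7.79% were lower in Spic-/- cells and 6.65% in control cells, and with 18 members a count of 0 is near those shares. In Spic-/- cells 3 were higher (Slc31a2, Slc31a1 and Slc30a6) and in control cells 2 (Slc31a2 and Slc31a1), and the medians were 0.32 and 0.27. These medians kept their sign after upper-quartile scaling, at 0.07 and 0.03. Slc39a1 had 156 and 77.8 FPKM with and without LPS in Spic-/- cells and 119.8 and 66.4 FPKM in control cells, just under 2-fold in Spic-/- cells on the (FPKM + 1) scale. At the other end Slc41a3, of a magnesium transporter family, had log2 ratios of -0.57 and -0.67, and Slc39a10, a zinc importer, had -0.72 and -0.35.

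Inorganic ion exchangers (13 members) had 2 higher and 2 lower in Spic-/- cells and 1 higher and 2 lower in control cells. Slc4a7 was higher in both, and Slc26a11 and Slc24a6 were lower in both. Their median was -0.12 in Spic-/- cells and 0.09 in control cells, and the second took a negative sign (-0.12) after upper-quartile scaling. Of the 2 members for phosphate and sialic acid, Slc17a5 was lower and Slc20a1, a sodium-phosphate cotransporter named after its values were seen, had -0.20 and -0.03.

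Mitochondrial carriers, the largest group with 27 members, were mostly between the limits, 24 in Spic-/- cells and 23 in control cells. Only Slc25a37 was at least 2-fold higher in both. Slc25a45 and Slc25a30 were lower in both, and Slc25a38, which carries glycine for heme synthesis, was at -0.81 in Spic-/- cells and -1.10 in control cells. The family median was -0.13 in Spic-/- cells and 0.07 in control cells, the second negative (-0.17) after upper-quartile scaling. The 2 carriers with the highest levels were between the limits. Slc25a3 had 221 and 165 FPKM with and without LPS in Spic-/- cells and 200.4 and 168 FPKM in control cells, and Slc25a5 had 203 and 189 FPKM with and without LPS in Spic-/- cells and 169 and 161 FPKM in control cells. Slc25a28, mitoferrin 2, named after its values were seen, had log2 ratios of -0.09 and 0.22, beside 1.39 and 1.33 for mitoferrin 1.

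The 16 members for nucleotide sugars and related carriers of the Golgi and endoplasmic reticulum (family 35) had none at least 2-fold higher and 1 lower, Slc35c2, a relative of the GDP-fucose transporter, at 8.42 FPKM with LPS and 28.04 FPKM without LPS in Spic-/- cells, against 8.48 and 23.1 FPKM in control cells. Their medians were -0.24 in Spic-/- cells and -0.29 in control cells. Slc35a3, which carries UDP-N-acetylglucosamine, was highest in the family at 0.63 and 0.63, and Slc35a4 had the highest level, 44.8 and 37.8 FPKM with and without LPS in Spic-/- cells and 39.6 and 33.5 FPKM in control cells. The 2 organic cation members were below 0, Slc22a4, which transports ergothioneine, at -0.68 and -0.84, and Slc22a18 at -0.19 and -0.06.

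Grouped by membrane instead of substrate, 13 members known from lysosomes or endosomes (a list drawn up after the values were seen) held both extremes. In each genotype 2 were at least 2-fold higher with LPS, Slc2a6 and Slc15a3, and 6 lower, Slc46a3, Slc17a5, Slc26a11, Slc29a3, Slc36a1 and Slc2a8. All of these 6 reached 5 FPKM only without LPS, so they became members through the state in which they were high. With a pseudocount of 5 FPKM, Slc46a3 alone of the 6 stayed at least 2-fold lower in both genotypes. The other 5 were between the limits. The median was -0.45 in Spic-/- cells and -0.37 in control cells. These counts and this median depend on which genes were put on the list.

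**Figure D3:**
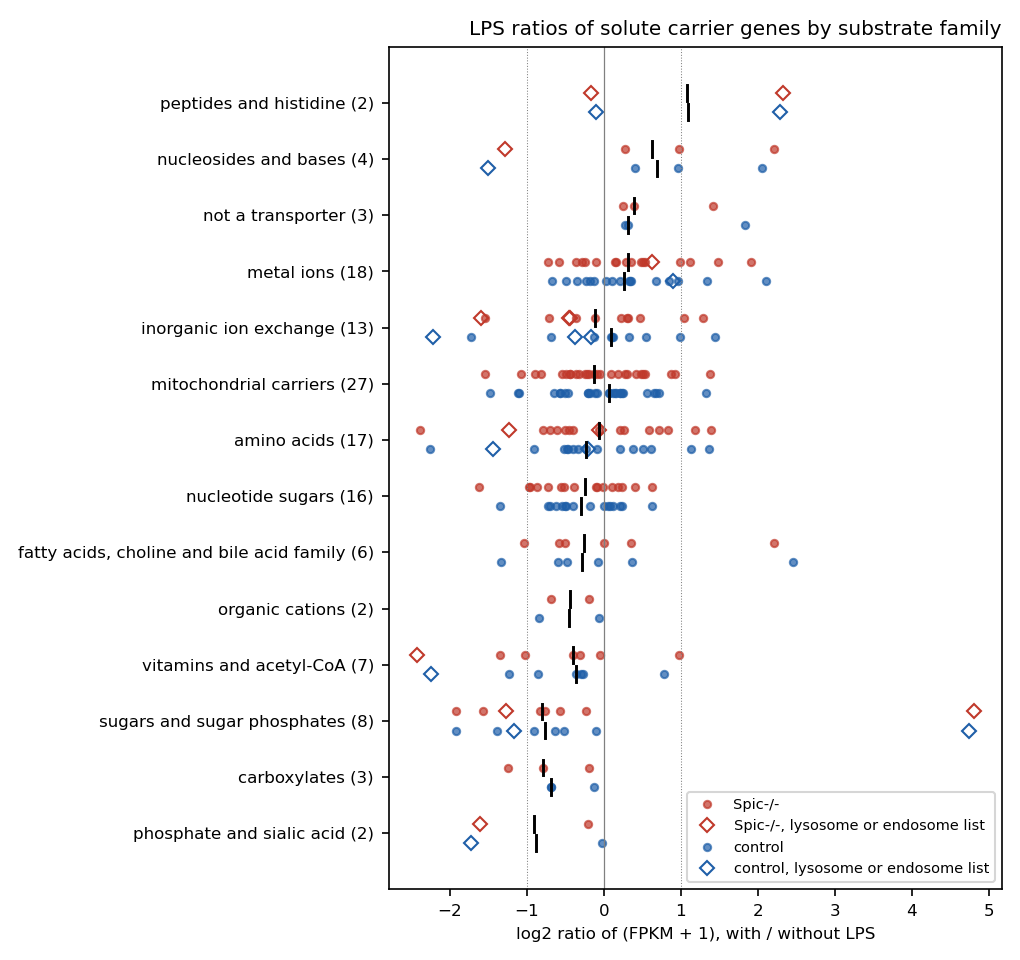
Log2 ratios of (FPKM + 1) with over without LPS for the 128 members by substrate family (number of members in parentheses), with Spic-/- cells in red above control cells in blue; black ticks are family medians, open diamonds the lysosome or endosome list, and dotted lines 2-fold. Metal ion members have no point left of the lower limit, and the diamonds include both Slc2a6 at the far right and Slc46a3 at the far left.

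Transporters of similar function that carry other symbols were read from a separate list of 55 names, of which 47 were in the files and 32 reached 5 FPKM. In Spic-/- cells 2 of 32 were at least 2-fold higher with LPS and 6 lower, and in control cells 2 were higher and 7 lower. Of all genes at that minimum, 13.5% were higher and 7.79% lower in Spic-/- cells, and 12.2% and 6.65% in control cells. Among the genes called, Ctns, Mfsd6, Sfxn5 and Tmem104 reached 5 FPKM only without LPS and Mfsd7a only with LPS. These passed the minimum through the state in which they were high. Slco3a1, of the organic anion transporter family, stood at 108 FPKM with LPS and 5.22 FPKM without LPS in Spic-/- cells, against 81.5 and 3.54 FPKM in control cells, and Mfsd7a at 32.98 FPKM with LPS and 2.75 FPKM without LPS in Spic-/- cells, against 25.7 and 2.64 FPKM in control cells. Lower were Mfsd12, a lysosomal and melanosomal transporter of cysteine, at 6.55 FPKM with LPS and 46.95 FPKM without LPS in Spic-/- cells, against 4.86 and 42.7 FPKM in control cells, and Tmem104 at 1.76 FPKM with LPS and 16.1 FPKM without LPS in Spic-/- cells, against 1.82 and 15.4 FPKM in control cells. Ctns, the cystine exporter of lysosomes, had log2 ratios of -0.98 in Spic-/- cells and -1.25 in control cells. Bsg, the chaperone of monocarboxylate transporters, had 0.64 and 0.59.

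Genotype ratios were far smaller than LPS ratios. With LPS, none of the 128 members was at least 2-fold higher or lower in Spic-/- than in control cells, and without LPS none was either. Among all 8272 genes, 0.846% passed 2-fold in either direction with LPS and 0.87% without LPS, so a count of 0 is near the background. At 1.5-fold 1 member was lower with LPS and 0 without LPS, where 1.73% and 1.43% of all genes were lower. None was higher at 1.5-fold, where 2.67% of all genes were with LPS and 1.8% without LPS. The members' medians were 0.09 with LPS and 0.08 without LPS, beside 0.08 and 0.07 for all genes. Both medians of the members took a negative sign after upper-quartile scaling (-0.045 and -0.023), as did those of all genes (-0.06 and -0.037). In the same libraries 7 of 12 stromal and endothelial markers with LPS and 8 of 12 without LPS were at least 1.5-fold lower in Spic-/- cells, with Pecam1 under 1 FPKM in every library. Their part in the genotype ratios of the members was not tested.

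The member lower at 1.5-fold was Slc22a18, an imprinted gene related to organic cation transporters. It stood at 4.78 FPKM with LPS and 5.604 FPKM without LPS in Spic-/- cells, against 8.295 and 8.69 FPKM in control cells. The ratio was 0.576 with LPS (interval 0.407 to 0.807) and 0.645 without LPS (interval 0.498 to 0.831). On the (FPKM + 1) scale used for the counts, the log2 ratio without LPS was -0.55, short of 1.5-fold, and with a pseudocount of 0.1 FPKM it was -0.62, past 1.5-fold. Both knockout libraries were below both control libraries. Slc22a18 and Slc25a4 were picked for low genotype ratios in both LPS states, so this order is no separate result for either. Slc25a4, the adenine nucleotide translocase of muscle and heart, showed the same order at 72.6 FPKM with LPS and 75.02 FPKM without LPS in Spic-/- cells, against 98.7 and 91.03 FPKM in control cells, with log2 genotype ratios of -0.44 with LPS and -0.28 without LPS. Slc3a2 had -0.08 and -0.29. Further low ratios with LPS were those of Slc25a45 (-0.52), Slc33a1 (-0.42), Slc46a3 (-0.35) and Slc9a3r1 (-0.32), and without LPS those of Slc26a11 (-0.37), Slc22a4 (-0.29) and Slc25a1, the citrate carrier (-0.25).

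Among the highest genotype ratios with LPS was Slc25a22, a glutamate carrier of mitochondria, at 22.8 FPKM in Spic-/- cells and 15.2 FPKM in control cells. Its ratio was 1.498 (interval 1.302 to 1.72), and the log2 ratio was 0.55 with LPS and 0.27 without LPS. The others with LPS were Slc27a1 (0.50), Slc7a8 (0.45), Slc15a3 (0.45), Slc41a2, of a magnesium transporter family (0.42), and Slc25a37 (0.38). Without LPS the highest were Slc44a1 (0.49), Slc2a9 (0.45), Slc31a2 (0.41), Slc15a3 (0.40), Slc39a10 (0.35) and Slc39a13, a zinc transporter of the secretory pathway (0.35). Slc15a3 was thus on both lists, with both of its intervals above 1, at 1.33 to 1.399 with LPS and 1.26 to 1.38 without LPS. It was picked for high genotype ratios, so the position of its intervals is no separate result. The sign of the genotype ratio was the same in both LPS states for 81 of 128 members, and the 2 ratios, which share no library, had a Pearson correlation of 0.43 and a Spearman correlation of 0.37. The values for all genes were not computed.

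**Figure D4:**
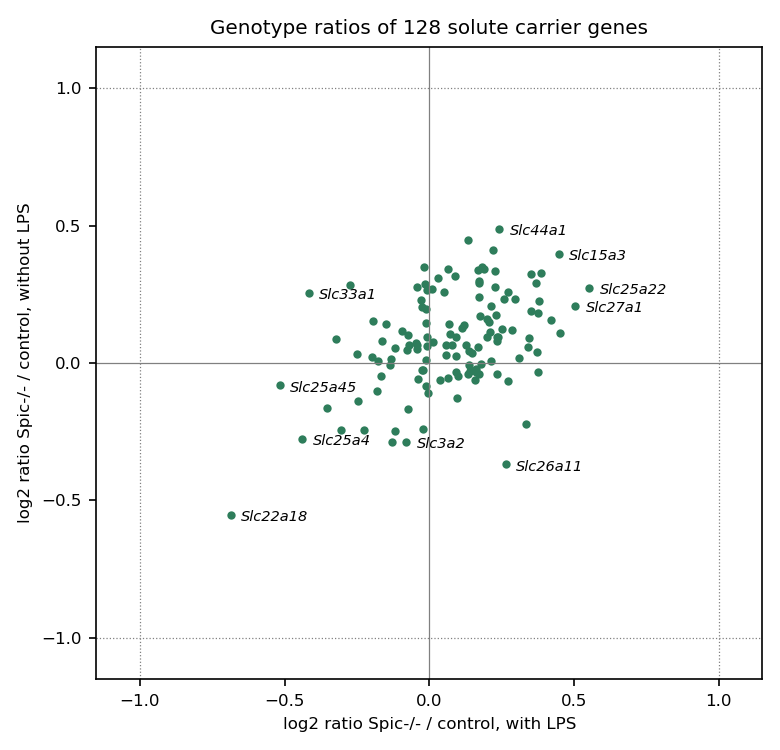
Each point is 1 of 128 members, with the log2 ratio of Spic-/- over control cells with LPS on the horizontal axis and without LPS on the vertical axis; dotted lines mark 2-fold. No point reaches a dotted line, and Slc22a18 is the point furthest to the lower left.

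The difference of the LPS ratios, Spic-/- minus control, was under 1 on the log2 scale for all 128 members, while 0.822% of all 8272 genes reached 1. Its median was 0.00 for the members and 0.01 for all genes. In either direction 4 members reached 0.5, a limit at which the share of all genes was not computed. The largest negative differences were those of Slc33a1 (-0.67), which imports acetyl-CoA into the endoplasmic reticulum, Slc16a7 (-0.56) and Slc25a45 (-0.44). The largest positive ones were those of Slc26a11 (0.63), Slc19a1 (0.56) and Slc25a30 (0.41). Slc33a1 stood at 4.91 FPKM with LPS and 11.1 FPKM without LPS in Spic-/- cells, against 6.89 and 9.11 FPKM in control cells, so its level with LPS was lower in Spic-/- cells and its level without LPS higher. Slc26a11 was at or under 0.75 FPKM in both libraries with LPS, where the interval of its genotype ratio ran from 0.718 to 3.84.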

How the data were processed

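Polyadenylated RNA of 4 cultures was sequenced from stranded libraries, per the labels' protocols. The deposited FPKM values per gene were made by the authors with Cuffnorm 2.2.1 after alignment to mm10, per the submitters' processing notes, which also name Bowtie2 2.2.3, SAMtools 0.1.19 and TopHat2 2.0.13 and give no settings, annotation or scaling option. FPKM carry no counts, so estimated fragments were recovered from the spacing of low values. Of 2419 genes with low values, 1916 (79.2%) had values that were whole multiples of a common unit. Among these 1916 genes, 811 had 1 transcript. The fragments per kilobase were fitted from the longer transcripts of that group, and the number of these was not recorded. Log2 ratios used a pseudocount of 1 FPKM, which understates changes of low genes, and calls were made at 2-fold. Each group is 1 library, so no test was run. Python 3.11.15, numpy 2.4.6, pandas 2.3.3 and scipy 1.17.1 were used, and the calculation was tested on simulated data.

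The members, families and marker lists were chosen with earlier results of these data known. Genes were named by rule: the 12 highest and 12 lowest mean LPS ratios, the 6 highest and 6 lowest genotype ratios in each LPS state, the 3 most extreme differences of LPS ratios in each direction, the 10 highest levels, the family extremes and the members next to the minimum; other genes named are identified as such or belong to a listed group. Alternatives changed the pseudocount, the minimum, the scaling and the call. Gene coordinates and promoters came from RefSeq (GRCm38.p6) and exon overlaps from GENCODE (GRCm38).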

Additional observations from a re-analysis of the deposited data

Results flagged for a closer look

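The sign of the genotype ratio was the same in both LPS states for 81 of 128 members, and that of the LPS ratio in both genotypes for 122. Neither count was made for all genes. The 3 members below are those whose signs were opposite and whose counting intervals both lay clear of a ratio of 1, each on its own side. This holds for the values as deposited. The genotype intervals without LPS began near 1, at 1.04 for Slc33a1 and 1.035 for Slc35b4. Upper-quartile scaling moved the members' median genotype ratio without LPS from 0.08 to -0.023 on the log2 scale, and the intervals were not recomputed after it. Slc16a7, Slc26a11 and Slc19a1 also had genotype ratios of opposite sign, with differences of -0.56, 0.63 and 0.56, but not with both intervals clear of 1. With 1 library per group none of these differences was tested.

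Slc33a1, the acetyl-CoA transporter of the endoplasmic reticulum, had a log2 genotype ratio (Spic-/- over control) of -0.42 with LPS and 0.25 without LPS, a difference of -0.67. Its exons overlap Gm26850 on the opposite strand.

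Slc35b4, a nucleotide sugar transporter, had a log2 genotype ratio of -0.19 with LPS and 0.15 without LPS, a difference of -0.35. Its exons overlap Gm13856 on the opposite strand.

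Slc7a8, a light chain partner of Slc3a2, had a log2 LPS ratio of 0.26 in Spic-/- cells and -0.08 in control cells, a difference of 0.34. After upper-quartile scaling the ratios were -0.02 and -0.32, which have the same sign.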

How the results depend on the processing

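No paired analysis was possible because each group is 1 library and the labels give no replicate numbers; for the same reason no library could be left out. With a pseudocount of 5 FPKM, 6 members were at least 2-fold lower with LPS in Spic-/- cells and 6 in control cells. With a minimum of 20 FPKM these counts were also 6 and 6 of 50 members (12% each, beside 4.90% and 4.60% of all genes), with 12 and 11 higher (24% and 22%, beside 19.9% and 18.3%), the median LPS ratio was 0.23 in Spic-/- cells and 0.12 in control cells, and the median genotype ratio with LPS was 0.17. With no minimum (346 genes) the median was 0 for both LPS ratios and both genotype ratios. Upper-quartile scaling gave medians of -0.40 for the LPS ratio in Spic-/- cells, -0.34 for that in control cells, -0.045 for the genotype ratio with LPS and -0.023 for that without LPS. At 1.5-fold, 23 members were higher and 33 lower with LPS in Spic-/- cells, 23 higher and 30 lower in control cells, and 1 was lower in Spic-/- than control cells with LPS. At 3-fold, 5 were higher and 6 lower with LPS in Spic-/- cells, and 6 higher and 6 lower in control cells. Those are 3.91% and 4.69% of members in Spic-/- cells, beside 7.52% and 2.62% of all genes, and 4.69% and 4.69% in control cells, beside 7.05% and 2.31%. With a pseudocount of 0.1 FPKM, 1 member (Slc26a11, 1.05) passed 1 in the difference of LPS ratios. The cause of these changes was not tested, apart from fewer members at the higher minimum. Under median-ratio scaling the members' medians and the ratios of the genes named by rule moved little, and the members' counts stayed within 1.5 times, with Slc39a1 added to the higher ones in Spic-/- cells; the lists of other transporters and of genes at 1 to 5 FPKM were not rescaled. Without the 3 members that are not transporters (Slc4a1ap, Slc7a6os and Slc9a3r1), an alternative chosen after seeing the data, 12 were higher and 17 lower in Spic-/- cells and 10 higher and 16 lower in control cells. Depth limits low members most, and the shallowest library was Spic-/- cells with LPS.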

Other observations

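A further 27 Slc genes had a highest value between 1 and 5 FPKM. In Spic-/- cells 1 of them was at least 2-fold higher with LPS and none lower, and in control cells none was higher and 2 lower, Slc29a2 (log2 ratio -1.01) and Slc5a6 (-1.08), named after their values were seen. The share of all genes in this range was not computed. Of all 10935 genes at 1 FPKM or more, 11.2% were higher and 8.12% lower in Spic-/- cells, and 10.04% and 6.68% in control cells. That wider set includes the genes above 5 FPKM. Slc13a3, a dicarboxylate transporter, was the higher one, at 2.01 FPKM with LPS and 0.487 FPKM without LPS in Spic-/- cells, against 1.97 and 0.551 FPKM in control cells. Slc2a3, the glucose transporter GLUT3, was under 2-fold in both genotypes (log2 ratios of -0.98 in Spic-/- cells and -0.87 in control cells), at 0.363 FPKM with LPS and 1.69 FPKM without LPS in Spic-/- cells, against 0.503 and 1.74 FPKM in control cells. No gene of these 27 was at least 2-fold different between genotypes in either LPS state. In the wider set at 1 FPKM or more, 0.503% were higher and 0.466% lower in Spic-/- cells with LPS, and 0.412% and 0.384% without LPS.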
